A study of Rattus norvegicus with 4 samples.

Results

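MHC class I molecules display peptides from inside the cell to cytotoxic T cells, and interferons raise the genes that build them. The genes described here are 9 of this system: B2m, Tap1, Tap2 and Tapbp, which build and load class I molecules, the class I transactivator Nlrc5, and Ifngr1, Stat2, Irf9 and Irf1, which carry the interferon signal. They were taken by symbol, and all 9 were found among the 23360 gene symbols of the files. The cells were INS-1 832/3, a rat insulinoma line in which beta-cell function is retained and which is 1 clone carrying a human insulin gene under Geneticin selection, so the samples hold a cultured line and not primary islets. In the 2D monolayer group the cells grew as a standard culture without hydrogel, and in the 3D bioprinted group they were printed as grids in GelXA LAMININK 411, a photo-crosslinked gelatin-based hydrogel with laminin. Both groups had 2 biological replicates, the same medium with Geneticin, 5 days of culture and passage 3, and neither received interferon according to the labels.

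Values are TPM, a measure of transcript abundance corrected for transcript length and scaled to a sum of 1000000 in each sample, so levels of different genes can be set side by side. Between 19355 and 19959 of 31201 transcripts were above 0 in a sample. The sequencing depth is not kept in TPM and is unknown here, and single values therefore carry no counting interval. Of the beta-cell markers, all 8 were expressed, with a summed level of 147100 and 160070 TPM in monolayer, against 157370 and 170000 TPM in 3D culture. Most of that was Ins1, with 114003 and 126460 TPM, against 127527 and 137822 TPM, so the sum does not describe each marker. Slc2a2 had 491 and 454 TPM in monolayer, against 626 and 654 TPM in 3D culture. Ins2 had 13237 and 13340 TPM in monolayer, against 8957 and 9326 TPM in 3D culture. The 8 markers of leukocytes, cells in which class I and interferon genes are usually strong, summed to between 0.695 and 1.01 TPM in monolayer, against between 1.02 and 1.64 TPM in 3D culture. Most of that was the lysosomal gene Cd68, while Ptprc, which marks all leukocytes, was listed at 0 in every sample. Endothelial markers summed to at most 1.15 TPM in monolayer, against 1.68 TPM in 3D culture, with Cdh5 and Tie1 at 0. Most of that was Kdr, with 0.965 and 1.00 TPM in monolayer, against 1.27 and 1.48 TPM in 3D culture. Fibroblast markers summed to at most 1.91 and 2.35 TPM, with Dcn and Pdgfrb at 0. Most of that was Pdgfra, with 1.90 and 1.87 TPM in monolayer, against 2.32 and 2.24 TPM in 3D culture. The part of such traces in the results was not tested. In these bulk samples, fewer cells expressing a gene and less RNA per cell cannot be told apart.

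Class I molecules consist of a heavy chain and the invariant light chain beta-2-microglobulin, encoded by B2m. Tap1 and Tap2 encode the paired chains of the transporter that pumps peptides into the endoplasmic reticulum, and Tapbp encodes tapasin, which bridges the transporter to the empty class I molecule. Type II interferon binds a receptor with Ifngr1 as its ligand-binding chain and acts on GAS elements, one of whose targets is the transcription factor Irf1. Type I interferons act through ISGF3, a complex that holds STAT2 and IRF9, on ISRE elements. Beta cells are known to raise class I genes strongly under interferon, a feature of islets in type 1 diabetes.

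The promoters are shown because interferons act through ISRE and GAS elements, which not every window held. RefSeq promoter windows of build GRCr8, from 250 bases before to 50 bases after the start, were found for 8 of the 9 genes, the exception being Nlrc5. They were searched on both strands for the ISRE core, which is TTTC, any 2 bases and TTTC again (on the other strand GAAA, any 2 bases and GAAA), and for the GAS motif TTCNNNGAA, which reads the same on both strands, with overlapping matches kept. The ISRE core was in 3.92% and the GAS motif in 8.87% of all 33469 windows of this length. Printed below are the 250 bases before the start, 5′ to 3′ along the gene, in lower case with motif matches in capitals, for 3 of the loading genes with an ISRE core and for both genes that fell in 3D culture.
B2m, chr3:129549080-129549329, plus strand: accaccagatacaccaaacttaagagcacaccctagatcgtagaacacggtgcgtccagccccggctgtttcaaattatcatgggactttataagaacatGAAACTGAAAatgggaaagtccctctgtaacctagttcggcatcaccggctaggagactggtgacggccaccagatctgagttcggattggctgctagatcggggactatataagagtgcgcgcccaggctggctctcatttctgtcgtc
Tap1, chr20:4668544-4668793, minus strand: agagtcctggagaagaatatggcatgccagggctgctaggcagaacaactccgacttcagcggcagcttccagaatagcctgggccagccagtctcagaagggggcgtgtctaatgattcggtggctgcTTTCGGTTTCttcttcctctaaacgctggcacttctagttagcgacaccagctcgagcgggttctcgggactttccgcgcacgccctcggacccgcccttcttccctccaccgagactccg
Tapbp, chr20:4967878-4968127, minus strand: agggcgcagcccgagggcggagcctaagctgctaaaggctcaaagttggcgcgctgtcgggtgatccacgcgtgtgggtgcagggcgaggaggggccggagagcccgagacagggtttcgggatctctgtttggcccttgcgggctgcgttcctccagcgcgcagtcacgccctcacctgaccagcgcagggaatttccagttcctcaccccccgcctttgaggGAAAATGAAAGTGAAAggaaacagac
Irf1, chr10:38417685-38417934, plus strand: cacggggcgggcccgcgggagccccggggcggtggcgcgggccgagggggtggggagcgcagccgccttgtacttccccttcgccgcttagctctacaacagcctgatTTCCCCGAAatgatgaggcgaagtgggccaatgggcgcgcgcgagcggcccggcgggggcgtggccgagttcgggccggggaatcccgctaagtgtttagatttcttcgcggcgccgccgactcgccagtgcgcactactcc
Stat2, chr7:1286840-1287089, plus strand: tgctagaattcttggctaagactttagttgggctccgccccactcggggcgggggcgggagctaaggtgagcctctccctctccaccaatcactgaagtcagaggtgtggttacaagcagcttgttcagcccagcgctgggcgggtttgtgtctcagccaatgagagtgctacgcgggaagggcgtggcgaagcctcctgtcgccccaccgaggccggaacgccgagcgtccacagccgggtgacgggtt

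Each of the 4 loading genes held an ISRE core. It began at position -150 from the start in B2m, -121 in Tap1 and -41 in Tap2, and Tapbp held 2 overlapping matches at -26 and -20. Among the signalling genes, Irf1 held a GAS motif at -142 and Irf9 one at -99, whereas Stat2 and Ifngr1 held neither motif. In GRCr8, Tap1 lies between Psmb8 and Psmb9, which encode subunits of the immunoproteasome, and Tap2 is the other neighbour of Psmb8. A match describes letters in the window and is not a measured binding site, and the TPM files hold no data on promoter activity.

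Levels in INS-1 cells ranged over 2 orders of magnitude. B2m and Tapbp were the most abundant and overlapped each other, followed by Ifngr1, Irf1, Stat2, Irf9 and Tap1, and last Nlrc5 and Tap2. Irf9 overlapped Stat2 in 3D culture and Tap1 in both groups, and Nlrc5 and Tap2 overlapped in monolayer, so the order within these pairs is not resolved there. In 3D culture both Nlrc5 values lay above both Tap2 values. The log2(TPM + 1) values, after scaling between samples by a trimmed mean of M values, were tested with limma for the 11960 genes with a mean of at least 1 TPM, which 7 of the 9 genes reached. Nlrc5 and Tap2 lay below this filter. Of the 7 genes, 2 fell and 0 rose in 3D culture at an adjusted p below 0.05 in limma, and the same held at an unadjusted p below 0.05. Among all genes tested, 38.0% passed, 19.5% lower and 18.5% higher, and 2 of 7 is not far from that background. At the unadjusted threshold, 3068 of the 11960 genes tested were lower and 2989 higher. The median log2 fold change of the 7 genes was -0.033, beside -0.0031 over all genes tested.

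**Figure D1:**
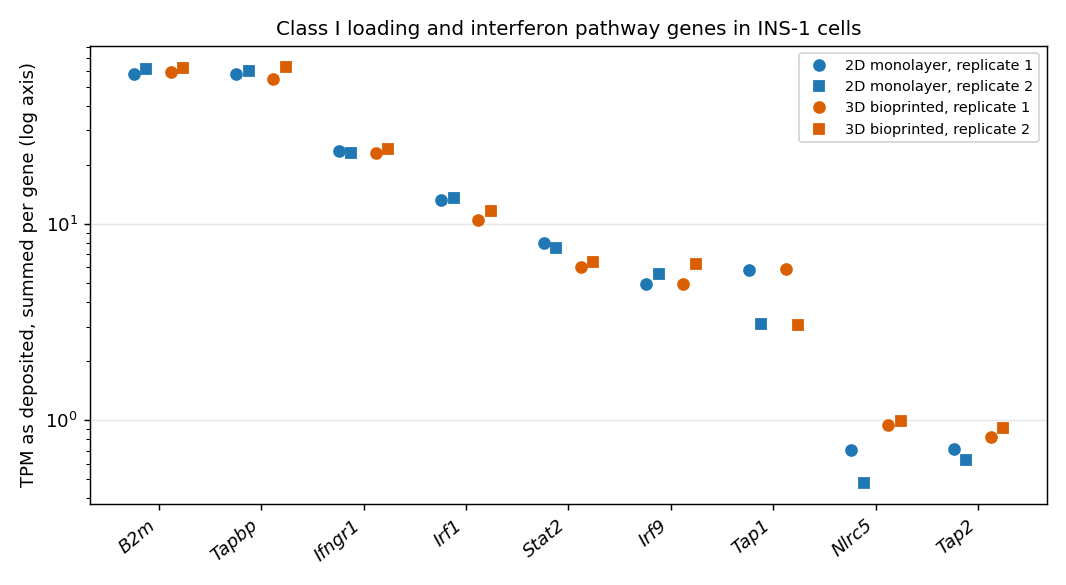
TPM as deposited, summed per gene, on a log axis for the 9 genes in each of the 4 samples (blue, 2D monolayer; orange, 3D bioprinted; circles, replicate 1; squares, replicate 2). Stat2 and Irf1 lie lower in both 3D samples, Nlrc5 and Tap2 lie higher at under 1 TPM, and Tap1 splits by replicate number.

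Stat2, the subunit that gives ISGF3 its transactivation domain, had 8.02 and 7.58 TPM in the monolayer samples and 6.04 and 6.36 TPM in the 3D samples. Both 3D samples lay below both monolayer samples. Of all genes tested, 75.5% had groups that did not overlap, 38.2% with lower and 37.3% with higher 3D samples. The group means were 7.80 ± 0.313 TPM and 6.20 ± 0.227 TPM (SD, n = 2 each), and Stat2 thus fell by 0.33 on the log2 scale (standard error 0.076, limma adjusted p = 0.0237). Stat2 is listed with 2 transcripts, and the difference was in 1 of them. ENSRNOT00000049536.4 had 5.85 and 5.18 TPM in monolayer, against 3.92 and 4.05 TPM in 3D culture. ENSRNOT00000088201.1 had 2.17 and 2.40 TPM in monolayer, against 2.13 and 2.31 TPM in 3D culture, with overlapping groups. Its share of the gene was 27.1% and 31.7% in monolayer and 35.2% and 36.3% in 3D culture. On the first transcript alone the log2 fold change was -0.41 (limma adjusted p = 0.0240). Quantification can divide reads among similar transcripts, and the shares were not tested.

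Irf1, a transcription factor induced by interferon gamma that activates class I genes, had 13.2 and 13.6 TPM in monolayer, against 10.5 and 11.7 TPM in 3D culture. The groups did not overlap. Group means were 13.4 ± 0.258 TPM and 11.1 ± 0.846 TPM (SD, n = 2 each), and Irf1 fell by 0.29 on the log2 scale (standard error 0.081, limma adjusted p = 0.0379). On TPM without scaling between samples the falls were of similar size, with log2 fold changes of -0.29 for Stat2 and -0.25 for Irf1, but missed the threshold (limma adjusted p = 0.0541 and 0.0676). With median of ratios scaling both passed. When single samples were dropped, the log2 fold change of Stat2 stayed between -0.35 and -0.30 and passed 0 times of 4, with adjusted p from 0.0510 to 0.153, and that of Irf1 stayed between -0.35 and -0.23 and passed once, without monolayer replicate 1.

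The other interferon genes showed no detectable difference. Irf9, the DNA-binding subunit of ISGF3, had 4.96 and 5.57 TPM in monolayer, against 4.95 and 6.22 TPM in 3D culture, so that the groups overlapped. Its log2 fold change was 0.029, with a 95% interval from -0.29 to 0.35 (limma adjusted p = 0.870). Ifngr1 had 23.5 and 23.1 TPM in monolayer, against 23.0 and 24.2 TPM in 3D culture, again with overlap. The log2 fold change of Ifngr1 was -0.023, with an interval from -0.18 to 0.13 (limma adjusted p = 0.782), and 0.019 without scaling between samples.

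Among the loading genes, B2m had 58.2 and 61.7 TPM in monolayer, against 59.5 and 62.2 TPM in 3D culture. The group means, 60.0 ± 2.48 TPM and 60.9 ± 1.93 TPM (SD, n = 2 each), differed by less than the spread between replicates. The log2 fold change of B2m was -0.022 with an interval from -0.20 to 0.16 (limma adjusted p = 0.823). Without scaling, the sign was the opposite, at 0.021. Tapbp had 58.2 and 60.0 TPM in monolayer, against 54.8 and 63.3 TPM in 3D culture, where the 3D samples lay on either side of the monolayer samples. The log2 fold change of Tapbp was -0.048, with an interval from -0.25 to 0.16 (limma adjusted p = 0.670). Between 97.4% and 99.6% of Tapbp came from the transcript ENSRNOT00000044975.4. The intervals of B2m, Tapbp and Ifngr1 together span -0.25 to 0.16 on the log2 scale. For each gene, its own interval gives the range of changes that its values leave possible.

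**Figure D2:**
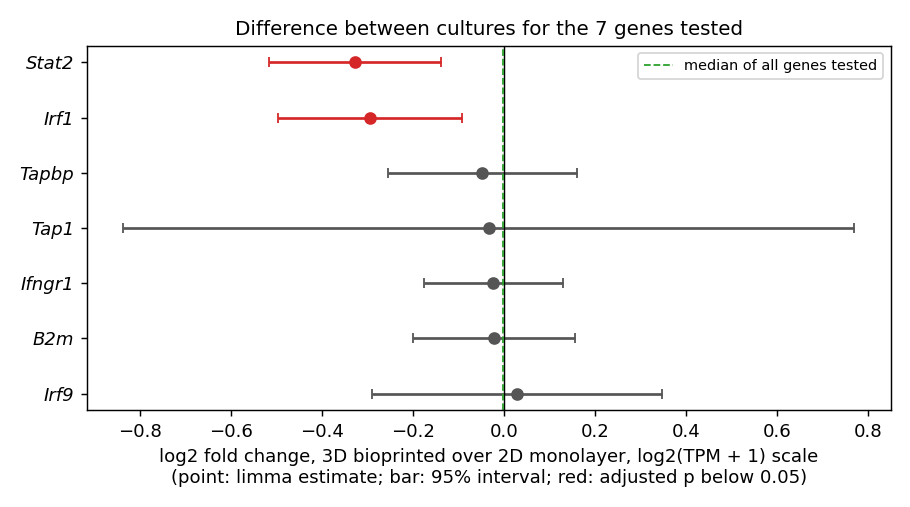
Log2 fold change of 3D bioprinted over 2D monolayer culture on the log2(TPM + 1) scale for the 7 genes tested, with limma estimates as points and 95% intervals as bars (red, adjusted p below 0.05; dashed line, median of all genes tested). The intervals of Stat2 and Irf1 lie below 0, those of the other genes include 0, and that of Tap1 is the widest, from -0.84 to 0.77.

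Of the 7 genes tested, Tap1 varied most between replicates of a group. It had 5.84 and 3.10 TPM in monolayer, against 5.89 and 3.07 TPM in 3D culture, so that replicate 1 of both groups lay well above replicate 2 of both groups. The difference between replicates came from the transcript ENSRNOT00000085225.1, with 3.00 TPM in monolayer replicate 1, 3.59 TPM in 3D replicate 1, and a listed value of 0 in both samples numbered 2. ENSRNOT00000000529.6, the transcript with the highest mean, had 2.84 and 2.76 TPM in monolayer, against 1.82 and 2.47 TPM in 3D culture. Both 3D samples were the lower ones for this transcript. On the summed values, Tap1 differed by -0.033 on the log2 scale (standard error 0.32, limma adjusted p = 0.941), and on ENSRNOT00000000529.6 alone by -0.31 (standard error 0.14, limma adjusted p = 0.133). Values of 0 in a file without counts can be a failed estimate, and what separates the replicates at this transcript was not tested.

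**Figure D3:**
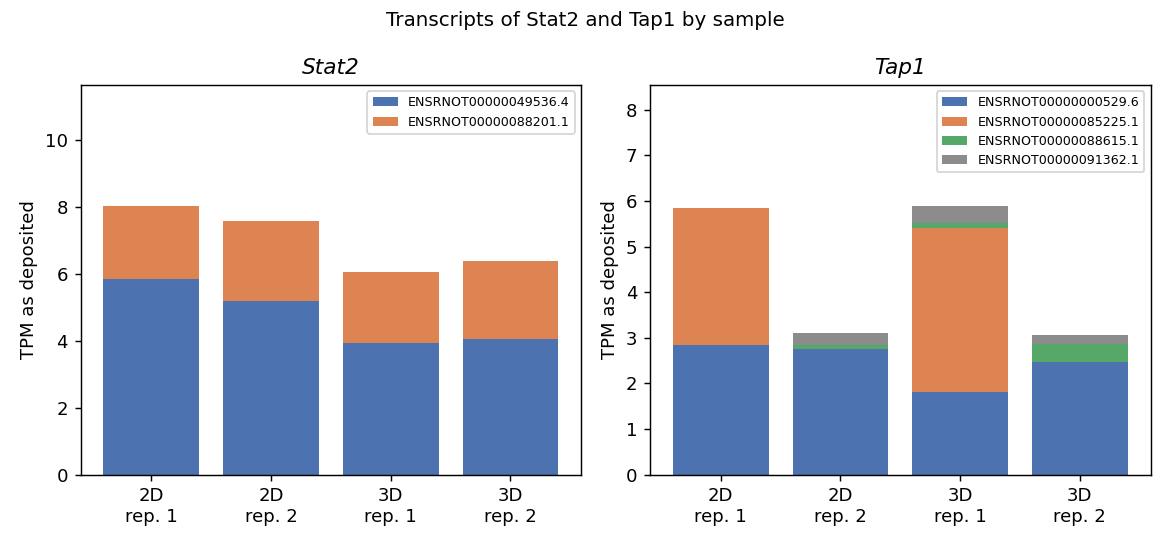
Stacked bars of the TPM of each transcript of Stat2 (left) and Tap1 (right) in the 4 samples. The Stat2 transcript ENSRNOT00000049536.4 is lower in both 3D samples, and the Tap1 transcript ENSRNOT00000085225.1 appears in both samples of replicate 1 and in neither of replicate 2.

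Tap2 and Nlrc5 were close to the limit of expression. Tap2 had 0.716 and 0.630 TPM in monolayer, against 0.824 and 0.908 TPM in 3D culture. Nlrc5, which drives class I promoters through their conserved SXY module, had 0.701 and 0.479 TPM in monolayer, against 0.943 and 0.985 TPM in 3D culture. In both genes the 3D samples lay above the monolayer samples. Tested without the expression filter, neither passed, with log2 fold changes of 0.28 for Nlrc5 (standard error 0.082, limma adjusted p = 0.0836) and 0.12 for Tap2 (standard error 0.059, limma adjusted p = 0.207). With 1 TPM added, these fold changes understate those of genes so low. By TPM, the level of Tap2 was well below that of Tap1, its partner in the transporter, in every sample.

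The heavy chains that pair with beta-2-microglobulin belong to the RT1 complex of the rat. Of the 21 RT1 class I symbols in the files, 13 were tested, and 4 rose and 1 fell in 3D culture in limma. Among all genes tested, 18.5% rose and 19.5% fell, and the 38.0% that passed in all is close to 5 of 13. The median log2 fold change of the 13 was 0.24, and 11 of them were positive, beside 5926 of the 11960 genes tested. RT1-A1, the classical class I gene and the most abundant, had 245 and 271 TPM in monolayer, against 282 and 301 TPM in 3D culture (log2 fold change 0.13, limma adjusted p = 0.259). RT1-S2, the largest rise of the list, went from 4.97 and 5.73 TPM to 8.71 and 10.2 TPM (log2 fold change 0.68, standard error 0.12, limma adjusted p = 0.0110). RT1-CE7 rose from 18.0 and 18.3 TPM to 24.4 and 24.1 TPM (log2 fold change 0.36, limma adjusted p = 0.0129), RT1-CE10 had a log2 fold change of 0.31 (0.0260) and RT1-CE1 of 0.36 (0.0493). RT1-M3-1, a nonclassical gene whose mouse counterpart presents N-formylated peptides, fell from 20.3 and 18.9 TPM to 12.2 and 15.6 TPM (log2 fold change -0.52, limma adjusted p = 0.0192). Several of these genes are similar copies among which reads can be divided, so single members are uncertain. The sum over all 21 symbols, which is less affected by such division, was 407 and 439 TPM in monolayer, against 473 and 504 TPM in 3D culture. These are TPM without scaling between samples, and RT1-A1, which did not pass, made up 59.6% to 61.8% of this sum. Relative to B2m this sum was 6.99 and 7.11 in monolayer and 7.96 and 8.10 in 3D culture. The groups did not overlap, which was also so for 75.5% of all genes tested. With 2 samples against 2, an exact two-sided permutation test cannot give a p below 0.333.

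**Figure D4:**
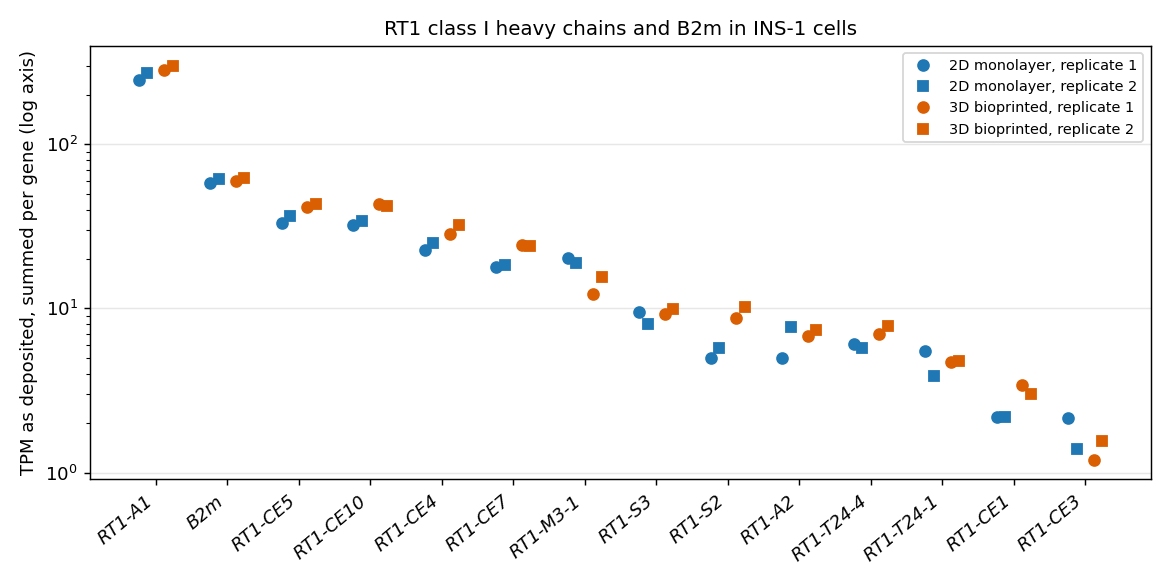
TPM as deposited on a log axis for B2m and the 13 RT1 class I heavy chain genes tested, ordered by mean level, in each of the 4 samples (blue, 2D monolayer; orange, 3D bioprinted; circles, replicate 1; squares, replicate 2). RT1-A1 lies above all others at 245 to 301 TPM, RT1-S2 and RT1-CE7 lie higher and RT1-M3-1 lower in both 3D samples, and B2m overlaps between groups.

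Of the 13 listed genes of peptide supply, class I folding and promoter control, 11 were tested. Of these, 4 fell and 2 rose in limma, beside 19.5% lower and 18.5% higher among all genes tested. Their median log2 fold change was -0.14. Psme1 and Psme2, the subunits of the interferon-inducible PA28 proteasome activator, both fell. Psme1 had 37.8 and 37.8 TPM in monolayer, against 30.3 and 28.8 TPM in 3D culture (log2 fold change -0.39, limma adjusted p = 0.0104). Psme2 had 34.6 and 35.7 TPM and 27.4 and 29.3 TPM (log2 fold change -0.34, limma adjusted p = 0.0163). Psme2 lies 2 genes from Irf9 in GRCr8, and Irf9 did not pass. Psmb10, an immunoproteasome subunit that replaces Psmb7, fell from 29.1 and 29.2 TPM to 18.0 and 23.7 TPM (log2 fold change -0.52, limma adjusted p = 0.0254). The standard subunit Psmb7 fell by a similar amount, from 356 and 360 TPM to 257 and 260 TPM (log2 fold change -0.51, limma adjusted p = 0.0050). The standard subunits Psmb5 and Psmb6 fell too (log2 fold change -0.53 and -0.62, limma adjusted p = 0.0041 and 0.0380). Psmb9 and Psmb8, the other immunoproteasome subunits and neighbours of Tap1, were barely expressed. Psmb9 had 1.5 and 0.767 TPM in monolayer, against 1.60 and 1.16 TPM in 3D culture (limma adjusted p = 0.576), and Psmb8, below the filter, had 0.223 and 0.622 TPM and 1.43 and 0.679 TPM. The RFX complex binds the X box of class I promoters. Its subunit Rfxap was listed at 0 in every sample, and the other subunits moved oppositely. Rfx5 rose from 10.8 and 9.89 TPM to 14.6 and 14.3 TPM (log2 fold change 0.40, limma adjusted p = 0.0107), and Rfxank fell from 7.72 and 8.23 TPM to 5.35 and 5.83 TPM (log2 fold change -0.48, limma adjusted p = 0.0138). Erap1, which trims peptides in the endoplasmic reticulum, rose from 21.3 and 19.5 TPM to 24.3 and 24.8 TPM (log2 fold change 0.22, limma adjusted p = 0.0379). The call of Erap1 was lost in 4 of 9 other settings. The general chaperones Calr, Canx and Pdia3 did not pass.

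Upstream of the genes described here, 10 further receptor and JAK-STAT genes were tested, of which 2 rose and 2 fell, near the 38.0% that passed among all genes tested, with a median log2 fold change of -0.11. Ifngr2, the second chain of the interferon gamma receptor, had 13.1 and 14.4 TPM in monolayer, against 12.4 and 13.5 TPM in 3D culture (log2 fold change -0.12, limma adjusted p = 0.315). For the type I receptor, Ifnar1 had 8.96 and 8.90 TPM and 9.90 and 10.1 TPM (limma adjusted p = 0.273), and Ifnar2 had 11.04 and 11.9 TPM and 11.3 and 9.72 TPM (0.264). Jak1, the kinase shared by all interferon receptors, had 50.6 and 44.6 TPM in monolayer, against 52.4 and 53.9 TPM in 3D culture (limma adjusted p = 0.183). The chains of the type III receptor differed in direction. Ifnlr1 rose from 3.60 and 3.45 TPM to 4.90 and 5.19 TPM (log2 fold change 0.38, limma adjusted p = 0.0231), and Il10rb, shared with IL-10 family receptors, fell from 8.17 and 8.84 TPM to 5.61 and 6.29 TPM (log2 fold change -0.49, limma adjusted p = 0.0156). Stat3, which carries mainly IL-6 family signals, had the largest change of the list, from 41.3 and 37.9 TPM to 64.0 and 62.8 TPM (log2 fold change 0.62, limma adjusted p = 0.0041).

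Of the 4 other IRF factors tested, 0 passed in limma, beside 38.0% of all genes tested. At an unadjusted p below 0.05 the count was also 0, where 3068 of the 11960 genes tested were lower and 2989 higher. Irf3, the constitutive factor of virus sensing, came nearest, with 29.2 and 30.9 TPM in monolayer, against 24.6 and 28.3 TPM in 3D culture (log2 fold change -0.22, limma adjusted p = 0.101). Irf7, the factor that amplifies type I interferon, was low, at 1.33 and 0.812 TPM and 1.32 and 1.69 TPM. The list's median log2 fold change was -0.018. Listed inhibitors of JAK-STAT signalling gave 2 falls among 7 genes tested, where 19.5% of all genes tested fell, with a median of -0.15. They were Ptpn6, the phosphatase SHP-1, from 18.5 and 17.6 TPM to 12.7 and 14.6 TPM (log2 fold change -0.42, limma adjusted p = 0.0136), and Cish, a SOCS family member, from 6.59 and 6.43 TPM to 5.32 and 5.29 TPM (log2 fold change -0.29, limma adjusted p = 0.0373). Ptpn6 did not pass on its most abundant transcript alone, where the adjusted p was 0.167, and Cish was lost in 4 of 9 other settings, among them TPM without scaling. The phosphatase Ptpn2, which acts on JAK kinases, had the next smallest p (log2 fold change -0.15, limma adjusted p = 0.109). Socs1, the main inhibitor induced by interferon gamma, had 1.62 and 1.35 TPM in monolayer, against 0.965 and 1.33 TPM in 3D culture and did not pass.

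Interferon-stimulated genes are the targets of this signalling. Of the 40 listed, 20 lay below 1 TPM on average, some of them close to it, as Ifi44 with a mean of 0.991 TPM, and 5 were listed at 0 in every sample (Cxcl9, Ifit3, Ifitm3, Sp100 and Zbp1). Isg15, Ifit1, Mx1 and Rsad2, which respond most strongly to type I interferon, stayed at or below 0.11 TPM in all 4 samples. Of the 20 genes tested, 4 fell and 0 rose in limma, and at an unadjusted p below 0.05 the counts were 5 and 0. At that unadjusted threshold, 3068 of the 11960 genes tested were lower and 2989 higher. The share that fell, 4 of 20, is near the 19.5% of all genes tested, whereas 0 of 20 rose, beside 18.5% of all genes tested. The median log2 fold change was -0.14, and 15 of the 20 were negative, beside 6034 of the 11960 genes tested. The antiviral tetherin gene Bst2 had 33.6 and 32.9 TPM in monolayer, against 19.3 and 21.5 TPM in 3D culture (log2 fold change -0.72, standard error 0.069, limma adjusted p = 0.0041). Ube2l6, the conjugating enzyme for ISG15, fell from 17.3 and 17.3 TPM to 10.1 and 11.4 TPM (log2 fold change -0.68, limma adjusted p = 0.0052). The other falls were those of Ifi35, from 17.6 and 15.5 TPM to 12.7 and 11.7 TPM (log2 fold change -0.45, limma adjusted p = 0.0120), and of Samhd1, a dNTP hydrolase that restricts viruses, from 4.71 and 3.43 TPM to 2.02 and 2.76 TPM (log2 fold change -0.61, limma adjusted p = 0.0333). Among the more abundant genes, Ifitm2 at 467 to 491 TPM and Ifi27 at 375 to 436 TPM did not pass. The ISRE core was in 19 of the 30 promoter windows found for this list. Of the genes that fell, Bst2 had 2 matches, and Ube2l6, Ifi35 and Samhd1 had 0 each. Ifi27 with 2 matches and Ifitm2 with 1 did not pass.

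**Figure D5:**
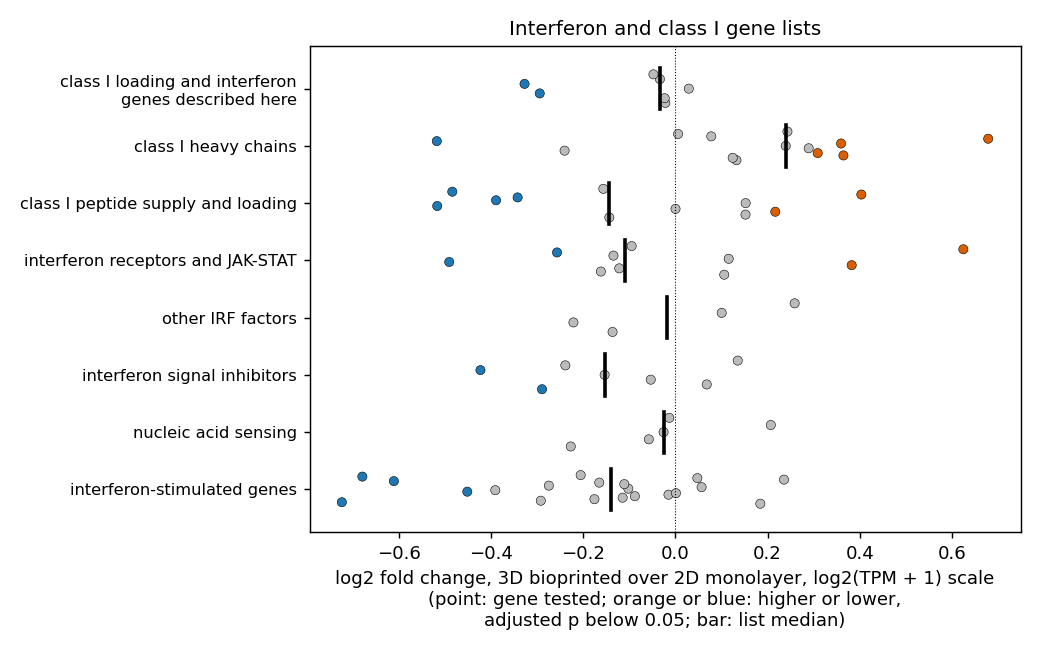
Log2 fold change of 3D bioprinted over 2D monolayer culture on the log2(TPM + 1) scale for each gene tested (points) in 8 lists, with the list median as a bar (orange, higher and blue, lower at an adjusted p below 0.05 in limma; grey, not passed). The median of the class I heavy chains is 0.24 and that of the interferon-stimulated genes is -0.14.

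Of the sensors of foreign nucleic acid, which induce interferon, 0 of 5 genes tested passed in limma, beside 38.0% of all genes tested. At an unadjusted p below 0.05 the count was also 0, where 3068 of the 11960 genes tested were lower and 2989 higher. The RIG-I gene Ddx58 had 2.82 and 2.25 TPM in monolayer, against 1.72 and 2.48 TPM in 3D culture, Sting1 had 2.29 and 2.95 TPM and 2.37 and 4.40 TPM, and Dhx58 had 6.52 and 6.56 TPM and 6.75 and 6.13 TPM. The groups overlapped in each. Of the 21 genes of these further lists that passed, 12 did so in every one of the 9 other settings of scaling, filter, pseudocount, fit and transcript choice in which they were tested, and all 21 kept their direction there and with each sample left out. Among the named genes, besides the cases given above, RT1-CE1 was lost in 4 settings, a pseudocount of 0.1 among them, Samhd1 without scaling and without the expression filter, and RT1-CE10, Psmb10 and Ifnlr1 without that filter. With 3D replicate 1 left out, 0 of the 21 passed, and over all genes 136 did in place of 4541.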

How the data were processed

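Messenger RNA of 2 monolayer and 2 3D bioprinted cultures of INS-1 cells was sequenced as stranded, single-end libraries. The authors quantified reads per transcript with Salmon 1.2 after FastQC 0.11.8, and deposited TPM with decimal commas, which sum to 1000000 per sample. Their methods name the reference as rn4 extended by the human insulin gene, and the build was not checked here. Counts and lengths, which the study's DESeq2 test needs, are not carried by TPM, and that test was not repeated. No genome coordinates of the files' build were used.

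Groups and replicate numbers came from the sample titles. Here TPM were summed per symbol, and the 11960 genes with a mean of at least 1 TPM were kept. Scaling was by unweighted TMM (trimmed mean of M values), after removal of the outer 30% of M and 5% of A values on either side (factors from 0.960 to 1.02), and log2(TPM + 1) was fitted with limma 3.58.1 (empirical Bayes with trend, R 4.3.3) and Benjamini-Hochberg adjustment over all genes tested. Precision rests on the 2 cultures of each group, since depth is unknown. The steps were tested on simulated TPM. Samples sharing a replicate number did not deviate together (correlation -0.0060 across genes), so no pairing was assumed. The genes and lists were chosen with earlier results of these data known. Named are all 9 genes, their direct partners and, of each list, the 3 smallest p-values and up to 6 genes that passed. Some further values were chosen after they had been seen, namely Psmb5, Psmb6, Psmb7, Rfxap and the cell-type markers named. So were the ratio of heavy chains to B2m, Socs1, Ifi44, the lowest and most abundant interferon-stimulated genes and the promoters printed for their ISRE core. Of the listed symbols, Mb21d1, Ticam1, Pecam1 and Col1a2 were not matched. Some listed genes are not reported here. Alternatives were the scaling, filter, pseudocount, fit, replicate block, threshold, transcript choice and each sample left out.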

Additional observations from a re-analysis of the deposited data

How the results depend on the processing

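No gene of the 9 passed as higher in 3D culture under any setting. The number that passed as lower was 2, 0 on TPM without scaling, 1 without the expression filter (Stat2), 0 at an adjusted p below 0.01, and 0 to 1 with each sample left out. The replicate block left both calls in place (adjusted p = 0.0295 for Stat2 and 0.0257 for Irf1 in limma) and called 4814 genes in all. Over all genes, 1418 passed at an adjusted p below 0.01, and with each sample left out between 136 (without 3D replicate 1) and 4515 passed, with 1037 without 3D replicate 2. The lone sample of a group is then assumed to vary like the other group. The cause of these shifts was not tested.

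Signs changed only among genes that did not pass. Without scaling, the log2 fold change was 0.019 for Ifngr1 and 0.021 for B2m, and with a mean of at least 5 TPM it was 0.00093 and 0.0030. Without the filter it was -0.0021 for Irf9. With each sample left out it ran from -0.14 to 0.044 for Tapbp, from -0.049 to 0.0039 for Ifngr1, from -0.10 to 0.054 for B2m, from -0.099 to 0.16 for Irf9 and from -0.42 to 0.36 for Tap1. For the 8 counts of the further lists that were above 0, 69 of 112 values under these settings stayed within 1.5 times the reported count, and the other 43 were lower. Without scaling, the heavy chains that rose numbered 6 in place of 4. With the replicate block, RT1-CE4, RT1-CE5 and Irf3 also passed (limma adjusted p = 0.0168, 0.0419 and 0.0419), Erap1, Cish and RT1-CE1 no longer did, and the standard error of Tap1 was 0.109 (limma adjusted p = 0.824). The depth behind single values is unknown.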

Other observations

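Class II presentation, which beta cells normally lack, was not expressed. Of the 8 genes listed, among them the master regulator Ciita, 6 were listed at 0 in every sample, and their sum was at most 0.180 TPM. Cd74, the invariant chain, had 0.0575 TPM in monolayer replicate 2 and 0.180 TPM in 3D replicate 1, and Ciita was listed at 0 throughout.

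Over the 4 samples, the genes whose centred log2(TPM + 1) values lay closest to those of B2m, the most abundant of the 9, were Cep63, Fibp and Lrp10, at root mean square distances of 0.0039, 0.0041 and 0.0082. With 4 samples and 11960 genes tested, such a likeness is a description.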
